A study of Mus musculus with 5 samples.

Results

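The epidermal differentiation complex is a stretch of mouse chromosome 3 in which the genes of the cornified cell envelope and of the S100 family of calcium-binding proteins lie side by side. Its accessibility was examined for 46 member genes, taken by name from an existing list of the complex, out of 21883 protein-coding genes. They comprised 13 S100 genes, 10 Sprr genes, the involucrin gene Ivl, 14 Lce genes, 6 fused-S100 genes (Flg, Flg2, Rptn, Tchh, Hrnr and Crnn) and the peptidoglycan recognition genes Pglyrp3 and Pglyrp4. Every peak of the deposited lists with its summit in a fixed window of 3.1 Mb (mm10), which begins just before S100a1 and ends beyond S100a10, was given to the nearest protein-coding gene. Merging overlapping peaks of all libraries gave 222 regions in this window, of 231612 in the genome, and 142 of the 222 had a member as the nearest gene.

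The assay was ATAC-seq, in which a transposase cuts and tags accessible DNA, on CD1 mouse embryos. The distal ectoderm of forelimb and of hindlimb gave 2 libraries each, from stage E14.5, and was freed from mesoderm with trypsin. The only other library was forebrain at E13.5, digested with collagenase. Tissue, stage and dissociation therefore cannot be told apart, and the labels do not say whether replicates were separate embryos, so their spread may be technical.

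As background, keratinocytes that leave the basal layer build a cornified envelope by cross-linking proteins such as involucrin, small proline-rich proteins (Sprr), late cornified envelope proteins (Lce) and filaggrin-type fused-S100 proteins. Fused-S100 proteins carry an S100 calcium-binding domain joined to long repeats. Transcription factors of the AP-1, grainyhead-like, C/EBP and AP-2 families are known regulators of these genes.

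The upstream sequences of 6 members, with and without a peak near the start, are given as examples. They are the 250 bases before the annotated start site (RefSeq, GRCm38.p6, the assembly of mm10), 5′ to 3′ on the gene's own strand. Capitals mark matches to TGANTCA, a loose AP-1 motif with any base at N, and to TATAAA, the TATA box, on either strand. The AP-1 match reads TGAATCA in Crnn and Flg, and TGAGTCA in Sprr1a, Sprr2d and S100a11. Sprr1a and Crnn are TATA-box promoters with an AP-1 match, and each had a summit within 1 kb of its start in every ectoderm library but none in the forebrain list.
Sprr1a, chr3:92485882-92486131 (- strand): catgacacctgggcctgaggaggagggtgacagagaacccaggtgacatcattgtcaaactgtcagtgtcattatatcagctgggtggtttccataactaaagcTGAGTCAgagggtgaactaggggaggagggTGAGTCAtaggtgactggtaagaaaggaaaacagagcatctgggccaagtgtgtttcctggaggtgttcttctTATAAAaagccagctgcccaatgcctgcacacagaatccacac
Crnn, chr3:93144539-93144788 (+ strand): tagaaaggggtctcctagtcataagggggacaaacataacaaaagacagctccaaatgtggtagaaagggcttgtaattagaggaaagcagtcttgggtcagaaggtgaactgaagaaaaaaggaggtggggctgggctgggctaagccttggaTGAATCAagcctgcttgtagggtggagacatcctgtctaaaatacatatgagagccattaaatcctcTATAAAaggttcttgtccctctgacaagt
Sprr2d and Flg also match both motifs, and neither had a peak within 1 kb of its start in any library.
Sprr2d, chr3:92338890-92339139 (+ strand): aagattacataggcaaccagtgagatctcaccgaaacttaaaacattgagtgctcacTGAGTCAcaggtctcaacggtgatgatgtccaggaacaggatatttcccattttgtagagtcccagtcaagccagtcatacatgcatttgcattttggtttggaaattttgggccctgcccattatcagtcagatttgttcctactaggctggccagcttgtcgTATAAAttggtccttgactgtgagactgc
Flg, chr3:93273296-93273545 (+ strand): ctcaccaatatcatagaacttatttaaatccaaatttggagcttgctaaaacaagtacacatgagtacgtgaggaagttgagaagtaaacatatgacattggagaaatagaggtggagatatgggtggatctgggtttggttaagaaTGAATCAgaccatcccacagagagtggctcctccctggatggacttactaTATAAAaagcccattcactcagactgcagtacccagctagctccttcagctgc
S100a9 has neither motif in these bases and had a start-site peak in each ectoderm library but not in forebrain. S100a11 has 15 CG dinucleotides in its 300-base promoter, the most of any member, and 2 AP-1 matches, and had a start-site peak in all 5 libraries.
S100a9, chr3:90695722-90695971 (- strand): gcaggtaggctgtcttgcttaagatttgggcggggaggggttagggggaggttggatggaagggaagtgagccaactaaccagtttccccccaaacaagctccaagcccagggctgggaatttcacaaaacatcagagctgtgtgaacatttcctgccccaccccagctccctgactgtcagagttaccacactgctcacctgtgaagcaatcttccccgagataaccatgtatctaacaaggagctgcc
S100a11, chr3:93520246-93520495 (+ strand): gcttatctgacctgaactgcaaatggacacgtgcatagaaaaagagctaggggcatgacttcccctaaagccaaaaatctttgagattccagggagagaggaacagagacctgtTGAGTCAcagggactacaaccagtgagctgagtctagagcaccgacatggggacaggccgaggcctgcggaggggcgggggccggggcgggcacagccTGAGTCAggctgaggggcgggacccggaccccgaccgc

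The libraries differed in the number of peaks called. The lists held 73830 and 73718 peaks for forelimb replicates 1 and 2, 51510 and 78147 for hindlimb replicates 1 and 2, and 120297 for forebrain. The depth of sequencing is unknown from these lists. The background rate implied by the peak statistics was 3.1 to 4.62 reads per position, and the smallest summit pileup among the peaks of the complex was 10 to 13 reads. Tissue identity was checked with marker genes by a summit within 1 kb of a gene end. Of 7 epidermal markers, 6, 7, 3 and 6 had such a peak in forelimb replicates 1 and 2 and hindlimb replicates 1 and 2, and 2 had one in forebrain. Of 7 forebrain markers, 7 had one in forebrain and 1 or 2 in each ectoderm library. Of 5 markers of limb mesenchyme, 3 or 4 had a peak in each ectoderm library and 5 in forebrain. Of 5 blood and endothelial markers, 2 or 3 had one in each ectoderm library and 4 in forebrain. Spi1, a regulator of blood cells, and Kdr, an endothelial receptor, had one in all 5 libraries, and Ptprc, the pan-leukocyte gene, in none. The part that other cell types play in the results below was not tested.

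The complex took a larger share of each ectoderm list than of the forebrain list. It held 115 and 112 summits in forelimb replicates 1 and 2, 75 and 124 in hindlimb replicates 1 and 2, against 69 in forebrain. Counted as distinct peaks, these amounted to 0.146% and 0.149% of the forelimb lists, 0.142% and 0.147% of the hindlimb lists and 0.0499% of the forebrain list. The share in each ectoderm library was thus 2.84 to 2.99 times that in forebrain, although the forebrain list was the longest. Among summits of a −log10 q of 5 or more, the counts were 74 and 78 for forelimb, 31 and 86 for hindlimb and 51 for forebrain, so that hindlimb replicate 1 was below forebrain by count. As shares of all such summits these were 0.159% and 0.172%, 0.143% and 0.1596%, and 0.0509%. The forebrain library has no replicate, so this difference has no test. Of the 222 regions, 19 (8.56%, exact 95% interval 5.23 to 13.04) had a peak in each ectoderm library and none in forebrain, and are called ectoderm-only here. The same call was made for 2.33% of regions genome-wide. Another 19 had a peak in all 5 libraries, against 6.72% of regions genome-wide. Forebrain-only regions, with no ectoderm peak, numbered 21 (9.46%, 5.95 to 14.1), against 33.1% genome-wide. Intervals cover counting error only. Of the regions found in all 4 ectoderm libraries, 50% in the complex and 25.8% in the genome lacked a forebrain peak. Single-library regions made up 56.8% of the complex and 71.1% of the genome. Hindlimb replicate 1, the shortest list, sets part of these counts: without it the complex had 31 ectoderm-only regions of 200 (15.5%), against 5.14% genome-wide.

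**Figure D1:**
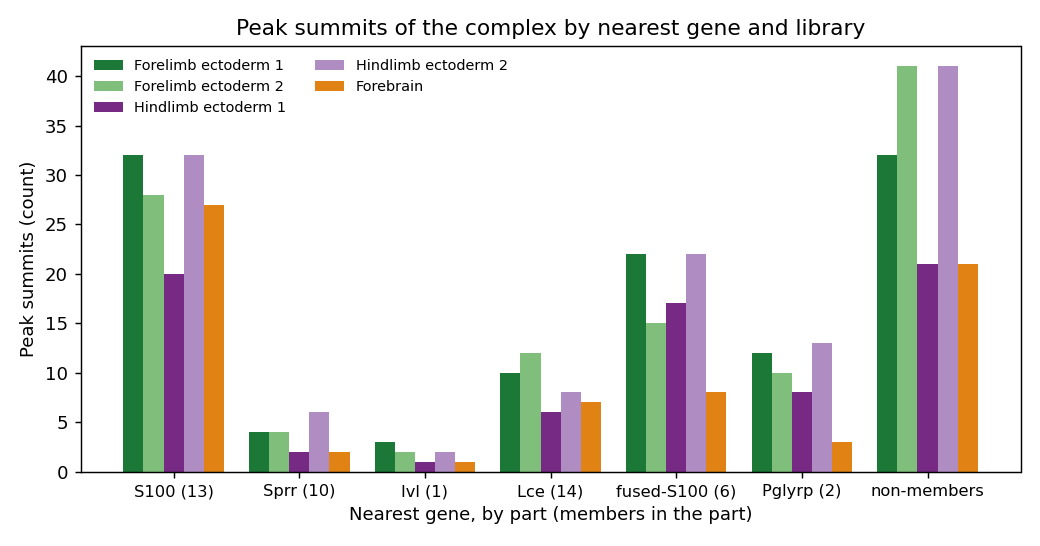
Bars give the number of peak summits (vertical axis) in the complex whose nearest gene belongs to each part (horizontal axis, with the number of members), 1 bar per library. The S100 and fused-S100 parts hold most of the member summits, and the Sprr part has 2 to 6 summits in every library.

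The parts differed in how many summits they drew. The 13 S100 genes took 32 and 28 summits in forelimb replicates 1 and 2, 20 and 32 in hindlimb replicates 1 and 2, against 27 in forebrain. The 6 fused-S100 genes took 22 and 15 in forelimb, 17 and 22 in hindlimb, with forebrain at 8. The 14 Lce genes took 10 and 12, 6 and 8, and 7 in the same order. The 10 Sprr genes took 4 and 4, 2 and 6, and 2. Forebrain was thus within the ectoderm range for S100, Lce and Sprr genes by raw count, and below each ectoderm library for fused-S100 genes. Among fused-S100 summits of a −log10 q of 5 or more, forebrain and hindlimb replicate 1 both had 7, against 12 and 11 for forelimb and 16 for hindlimb replicate 2. The stretch from the end of S100a9 to Pglyrp3, 1317.0 kb with Pglyrp4 inside it, held 4.10 regions per 100 kb. Pglyrp3 and Pglyrp4 together took 12 and 10 forelimb, 8 and 13 hindlimb and 3 forebrain summits. Ivl took 3, 2, 1 and 2 in the ectoderm libraries and 1 in forebrain. Ectoderm-only regions numbered 8 of 44 for S100, 3 of 31 for fused-S100, 1 of 8 for Sprr, 1 of 27 for Lce and 2 of 28 for Pglyrp genes, with 0 of 4 at Ivl and the remaining 4 nearest to non-members. Forebrain-only regions numbered 6 for S100, 5 for Lce, 2 for Pglyrp and 0 for Sprr, Ivl and fused-S100 genes, against 33.1% of regions genome-wide. Without hindlimb replicate 1 the ectoderm-only counts became 9 for S100, 6 for fused-S100 and 2 each for Sprr and Lce genes. Without forelimb replicate 1 the Lce count was also 2.

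By stretch of chromosome, the array from Sprr2a1 to Sprr2k was the emptiest. Its 218.1 kb held 6 regions, or 2.75 per 100 kb, with 1 or 2 summits in each ectoderm library and 0 in forebrain. The 184.7 kb from S100a1 to S100a9 held 14.6 regions per 100 kb, and the 44.15 kb from S100a11 to S100a10 held 18.1. The Lce array, 372.5 kb from Lce1a1 to Lce1m, held 9.39 per 100 kb, and the fused-S100 stretch from Crnn to Tchh, 304.3 kb, held 8.22. Near-identical copies can lose reads at mapping, and whether that applied here was not tested. Among the Sprr2 promoters, 15 pairs had identities of 59.4% to 88.7%, the highest between Sprr2d and Sprr2e, and the longest identical run was 45 bases. Lce1 promoters had 47.8% to 86.0% identity with a longest run of 56 bases, and S100 promoters 40.6% to 50% with a longest run of 11.

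A summit within 1 kb of a gene end was found for 16 and 18 of the 46 members in forelimb replicates 1 and 2, 10 and 15 in hindlimb replicates 1 and 2, and 12 of the 46 in the forebrain list. Over all protein-coding genes the shares were 60.1%, 57.6%, 51.3%, 59.7% and 64.7%. Of the members, 24 had none in any library, against 28.1% of all genes. Another 6 had one in all 5 libraries, against 46.4% of all genes. The pattern of a gene-end peak in each ectoderm library and none in forebrain was met by 4 members, S100a9, S100a16, Sprr1a and Crnn, against 0.585% of all genes. The reverse, forebrain without ectoderm, was met by Lce1i alone, against 4.08% of all genes. With peaks restricted to a −log10 q of at least 5, 2 members, S100a16 and Sprr1a, met the ectoderm pattern and 4 had a peak in all 5 libraries. S100a9 dropped out at 4.58 in hindlimb replicate 2 and Crnn at 4.02 in hindlimb replicate 1. The shares of all genes at this threshold were not computed. Without hindlimb replicate 1, 9 members had a peak in every remaining library, S100a4, S100a6 and S100a8 being the added ones, against 51.7% of all genes.

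**Figure D2:**
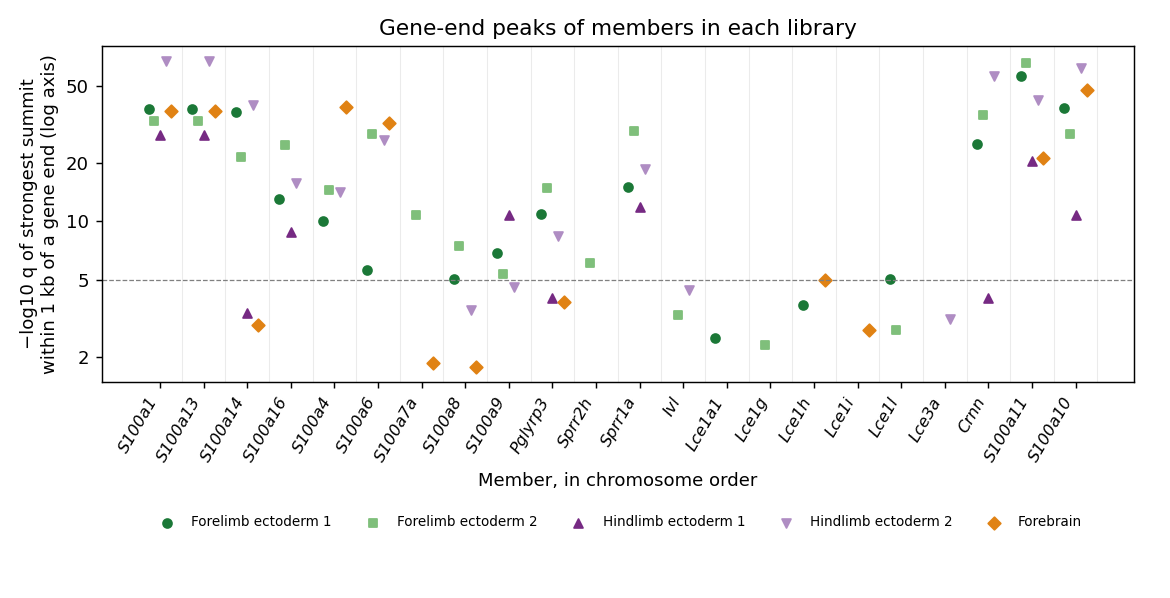
Points give −log10 q (vertical log axis) of the strongest summit within 1 kb of a gene end for the 22 members that had one, in chromosome order, 1 symbol per library. The dashed line marks a −log10 q of 5. S100a1, S100a13, S100a10 and S100a11 have a symbol above it in all 5 libraries, and Sprr1a, S100a16, S100a9 and Crnn have none for forebrain.

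Of the 13 S100 genes, 5 had a gene-end peak in every library, 2 the ectoderm pattern, 4 another pattern and 2 (S100a3 and S100a5) none. S100a11 and S100a10 encode partners of annexins. At S100a11, fold enrichment at the summit was 9.64 and 9.80 in forelimb replicates 1 and 2, 6.005 and 7.60 in hindlimb replicates 1 and 2, against 5.88 in forebrain, each in its own list. Its strongest ectoderm summits lay 620 to 627 bases after the start site, while the strongest forebrain summit lay at position -45 relative to it. At S100a10 the values were 7.34 and 6.26, 4.18 and 9.15, and 7.79 in the same order. S100a1, a gene of heart muscle and brain, and S100a13 start back to back on opposite strands and shared 1 peak, with folds of 8.29 and 8.02 in forelimb, 7.22 and 11.2 in hindlimb, with forebrain at 6.49. That peak cannot be assigned to either gene. S100a4 and S100a6 had a gene-end peak in 3 ectoderm libraries and forebrain, and none in hindlimb replicate 1. For S100a6 the folds were 3.29 and 6.71 in forelimb, 5.52 in hindlimb replicate 2 and 7.51 in forebrain. For S100a4 they were 4.35 and 4.88, 4.49 and 8.29. The forebrain value was the highest of the 4 for both genes, though it belongs to a separate list.

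S100a8 and S100a9 encode the subunits of calprotectin, a protein of neutrophils and of stressed keratinocytes. S100a9 had a start-site peak in each ectoderm library, with folds of 4.24 and 4.06 in forelimb and 4.76 and 3.32 in hindlimb, from summit pileups of 22, 18, 32 and 21 reads. Its summits lay at positions -194 to -80 relative to the start. The nearest forebrain peak was 12.5 kb away. S100a8 had a peak in 3 ectoderm libraries and forebrain, with folds of 3.77 and 4.41 in forelimb, 2.94 in hindlimb replicate 2 and 2.49 in forebrain. These are weak peaks, with a −log10 q of 1.79 in forebrain. S100a7a, the mouse psoriasin-related gene, had a gene-end peak in forelimb replicate 2 (fold 4.41) and forebrain (2.41). A stronger region inside the gene, chr3:90652929-90653273, lay 1145 bases from its end. Its folds were 3.72 and 5.75 in forelimb, 4.83 in hindlimb replicate 2 and 7.26 in forebrain.

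S100a14, S100a16 and S100a3 had peaks at different positions in ectoderm and forebrain. S100a14 is an epithelial S100 gene. Its ectoderm-only region chr3:90526543-90527006 had folds of 7.68 and 5.80 in forelimb and 2.91 and 7.39 in hindlimb, while a forebrain-only peak of fold 2.78 began 80 bases away, inside the gene. Both lie within 1 kb of the gene's end, so that S100a14 counted among the members with a peak in all 5 libraries. S100a16 has 2 annotated starts. The first, at 90537254, was covered by a peak in each ectoderm library, with folds of 4.31 and 6.04 in forelimb and 3.74 and 4.22 in hindlimb, and by none in forebrain. The second, at 90541146, was covered by a forebrain peak of fold 4.48 (−log10 q 10.6) and by none in ectoderm. A separate ectoderm-only region, chr3:90541614-90542008, lay after this second start, 175 bases from the forebrain peak, with folds of 6.78 and 8.57 in forelimb and 4.08 and 7.49 in hindlimb. The upstream bases of both starts show how they differ, with an AP-1 match 192 bases before the second.
S100a16, first start, chr3:90537004-90537253 (+ strand): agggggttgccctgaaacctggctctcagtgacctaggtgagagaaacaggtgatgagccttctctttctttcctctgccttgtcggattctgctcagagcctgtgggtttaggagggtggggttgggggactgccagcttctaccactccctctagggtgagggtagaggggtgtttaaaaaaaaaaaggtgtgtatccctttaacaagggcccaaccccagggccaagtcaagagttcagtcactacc
S100a16, second start, chr3:90540896-90541145 (+ strand): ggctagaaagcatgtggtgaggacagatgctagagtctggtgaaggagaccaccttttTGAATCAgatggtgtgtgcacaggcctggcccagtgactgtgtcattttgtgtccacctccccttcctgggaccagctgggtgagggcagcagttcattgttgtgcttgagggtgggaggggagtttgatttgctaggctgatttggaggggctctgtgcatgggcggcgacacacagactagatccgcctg
S100a3, a gene of the hair cuticle, has 4 annotated starts inside a long gene body that also spans S100a2. The start at 90586952 was covered by the ectoderm-only region chr3:90586824-90587338, with folds of 6.94 and 7.84 in forelimb and 5.20 and 7.53 in hindlimb. The nearest forebrain peak lay 806 bases away, in a region open in all 5 libraries, and the other starts had no peak over them.

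**Figure D3:**
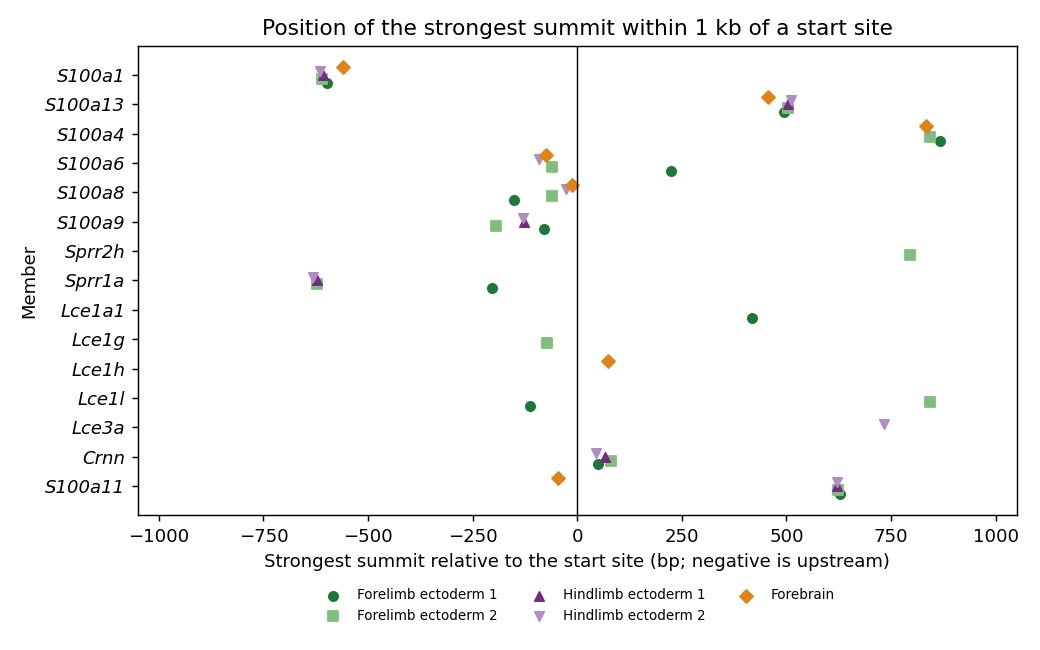
Points give the position of the strongest summit within 1 kb of the start site (horizontal axis, bp, negative upstream) for 15 members with 1 annotated start, 1 symbol per library. S100a9 summits sit at positions -194 to -80, Crnn summits 44 to 81 bases downstream, and those of S100a11 differ between ectoderm and forebrain.

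Sprr genes encode small proline-rich proteins that are cross-linked into the envelope. Of the 10, Sprr1a had a gene-end peak in each ectoderm library. The region chr3:92486320-92486740, with its strongest summit 623 bases upstream of the start, had folds of 5.48 and 7.72 in forelimb replicates 1 and 2, and 4.66 and 6.01 in hindlimb replicates 1 and 2, from pileups of 37, 54, 36 and 42 reads. A second, nearer peak, with its summit 203 bases upstream, was present in both forelimb libraries and hindlimb replicate 2 (−log10 q 15.0, 14.9 and 6.95) and not called in hindlimb replicate 1. The nearest forebrain peak to the first region was 24.1 kb away. Sprr2h had a peak in forelimb replicate 2 alone (fold 4.28), inside 1 kb of its end. The other 8 Sprr genes, namely Sprr1b, Sprr2b, Sprr2d, Sprr2e, Sprr2f, Sprr2k, Sprr3 and Sprr4, had no gene-end peak in any library. Ivl, whose product is an early scaffold of the envelope, had no start-site peak. Peaks inside it were found in forelimb replicate 2 (fold 3.22) and hindlimb replicate 2 (3.35) within 1 kb of its far end. The merged region around the former also held peaks of forelimb replicate 1 (3.69), hindlimb replicate 1 (3.70) and forebrain (3.43), farther inside the gene. A region 5349 bases beyond that end, chr3:92565395-92565685, had a peak in 3 ectoderm libraries (−log10 q 8.08 and 9.09 in forelimb and 6.80 in hindlimb replicate 2) and none in forebrain.

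The Lce genes, whose products enter the envelope late, had few and weak gene-end peaks. Such a peak was seen in 3 and 2 of 14 genes in forelimb, 0 and 1 in hindlimb, with forebrain at 2. Lce1l had one in both forelimb libraries (folds 4.15 and 3.12). Lce1a1 had one in forelimb replicate 1 (3.17), Lce1g in forelimb replicate 2 (2.94), Lce3a in hindlimb replicate 2 (3.10) and Lce1i in forebrain (2.85). Lce1h had one in forelimb replicate 1 (3.54) and, at its other end, in forebrain (3.55). The remaining 8 had none. The forebrain-only region chr3:92637842-92638777, 8327 bases from Lce1a1, was stronger, with a fold of 6.69 and a −log10 q of 27.4.

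Of the fused-S100 genes, Crnn (cornulin) was the member with an accessible start. Its folds there were 7.63 and 8.49 in forelimb replicates 1 and 2, and 3.03 and 11.2 in hindlimb replicates 1 and 2, with no forebrain peak within 13.7 kb. The hindlimb replicates lay on either side of the forelimb values, and hindlimb replicate 1 had the lowest −log10 q, 4.02. Flg (filaggrin), Flg2, Hrnr (hornerin), Rptn (repetin) and Tchh (trichohyalin) had no peak within 1 kb of either end in any library. Tchh instead held 2 regions inside the gene that were open in all 5 libraries, 2498 and 1717 bases from its nearest end. At chr3:93444289-93445295 the folds were 4.56 and 5.18 in forelimb, 3.57 and 5.32 in hindlimb, with forebrain at 7.79, where the summit pileup was 224 reads and the local background 6.04 times the library's rate. In the ectoderm libraries that local background was 2.21 to 3.03 times the rate. No region of Flg was found in more than 1 library.

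**Figure D4:**
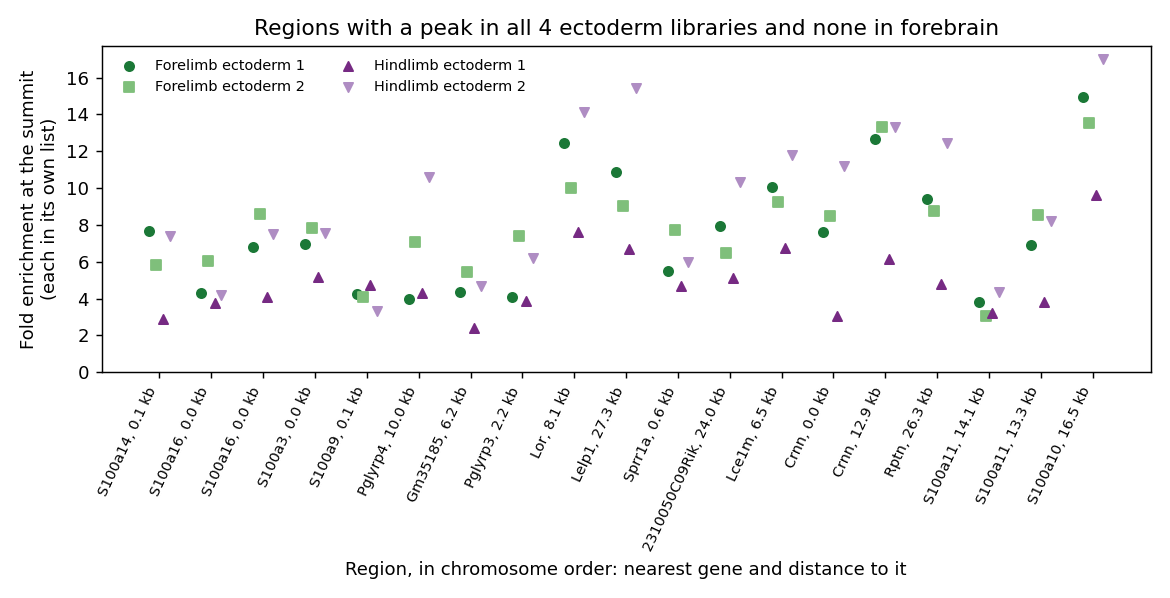
Points give the fold enrichment at the summit (vertical axis, each value from its own list) for the 19 ectoderm-only regions in chromosome order, labelled by the nearest gene and the distance to it, 1 symbol per ectoderm library. Hindlimb replicate 1 is lowest in most regions, and the regions near Crnn (12.9 kb) and S100a10 (16.5 kb) reach the highest folds among those with a member as nearest gene.

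The strongest ectoderm-only regions lay between genes. Of the 19 regions, 5 lay within 1 kb of a gene end, and 15 lay outside genes. The strongest by rank within the lists was chr3:93580644-93581408, 16.5 kb beyond S100a10, at a median percentile of 97.2 by −log10 p. Its folds were 14.9 and 13.53 in forelimb, and 9.63 and 17.0 in hindlimb, from pileups of 107, 107, 82 and 176 reads. The region chr3:93162458-93162933, 12.9 kb from Crnn on the side towards Flg2, had folds of 12.7 and 13.3 in forelimb and 6.15 and 13.3 in hindlimb. The region chr3:93367248-93367601, 26.3 kb from Rptn, had folds of 9.38 and 8.73, and 4.77 and 12.5. For the Lce genes, chr3:93025377-93025828, 6550 bases from Lce1m, had folds of 10.0 and 9.25, and 6.76 and 11.8. For the Pglyrp genes, whose products bind bacterial peptidoglycan, chr3:90751231-90751735 lay 9952 bases from Pglyrp4 with folds of 3.95 and 7.09, and 4.29 and 10.6. The region chr3:92034513-92035117 lay 2219 bases from Pglyrp3 with folds of 4.06 and 7.38, and 3.89 and 6.20. Near S100a11, chr3:93506890-93507448 had folds of 6.91 and 8.53, and 3.79 and 8.22, and chr3:93506111-93506709 beside it 3.81 and 3.04, and 3.22 and 4.37. Hindlimb replicate 1 gave the lowest fold in each of the regions named in this paragraph except those of Pglyrp4 and of chr3:93506111-93506709.

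Regions open in all 5 libraries had a member as nearest gene in 13 of 19 cases, against 142 of all 222 regions of the complex. Of the 13, 7 were nearest to S100 genes and 4 to fused-S100 genes, which took 44 and 31 of the 222. Besides those at gene ends, a region 1187 bases from S100a6 had folds of 7.35 and 6.70 for forelimb, 2.72 and 4.43 for hindlimb and 4.32 for forebrain. A region 14.6 kb from S100a9 had 8.36 and 7.74, then 2.98 and 7.38, and 5.92 for forebrain. Near S100a10, at 32.7 kb, the values were 10.4 and 12.3, then 3.83 and 9.44, and 6.93 for forebrain. Lce1m, whose own ends had no peak, had such a region at 12.6 kb with 7.47 and 7.92, then 5.08 and 6.16, and 7.58 for forebrain. Crnn had one at 14.1 kb with 5.78 and 5.11, then 2.91 and 5.40, and 7.62 for forebrain. Hrnr had one at 28.6 kb with 3.44 and 6.39, then 2.88 and 8.16, and 6.53 for forebrain. Pglyrp3 had a gene-end peak in every library, at either end of the gene, with strongest folds of 4.46 and 6.57 for forelimb, 3.54 and 4.63 for hindlimb and 3.20 for forebrain. Of these peaks, the region chr3:92033125-92033557 lay 691 bases from the gene and was open in all 5 libraries, with 4.46 and 4.89, then 2.90 and 3.48, and 3.20 for forebrain.

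Forebrain-only regions with a member as nearest gene numbered 13 of 21, against 142 of all 222 regions of the complex. Of these 13, 7 had a −log10 q of 5 or more. Beyond the S100a16 and Lce1a1 regions described above, they lay 4158 bases from S100a3 (fold 6.59), 9193 bases from S100a6 (5.79), inside S100a11 (4.64), inside Pglyrp3 (3.56) and at the start of Lce1h (3.55).

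The question whether the limbs differ was addressed with regions found in both libraries of 1 limb and neither of the other. The complex had 6 forelimb-only regions (2.70%, against 1.97% of regions genome-wide) and 4 hindlimb-only regions (1.80%, against 0.655%). With 2 libraries against 2, only 3 even splits exist, and no test was made. The forelimb-only regions nearest to members lay 3385 bases from Lce1f (−log10 q 8.40 and 9.09), 17.5 kb from Lce3a (7.57 and 9.83, with a forebrain peak of 13.54) and 4156 bases from S100a10 (3.09 and 4.74). The hindlimb-only regions nearest to members lay 14.7 kb from Crnn (13.4 and 30.6), inside Flg2 (4.65 and 2.84) and inside Pglyrp3 (4.04 and 2.36). With peaks of a −log10 q of at least 5 alone, 6 forelimb-only regions and 1 hindlimb-only region were found. These 6 were not the same set as before. The S100a10 region and a region near Gm36323 (10.25 and 3.77) dropped out. A region 23.9 kb from Hrnr entered because its hindlimb replicate 2 peak (4.81) was removed. The region at the start of S100a8 (5.07 and 7.52 in forelimb) also entered, because its hindlimb replicate 2 peak (3.49) was removed. Its forebrain peak (1.79) was removed as well. Within the complex, 63.0% of forelimb replicate 1 peaks were overlapped by forelimb replicate 2 and 65.7% by the longer list of hindlimb replicate 2. Genome-wide these shares were 53.5% and 55.7%. Of the hindlimb replicate 1 peaks in the complex, 61.6% were overlapped by hindlimb replicate 2 and 60.3% by forelimb replicate 2. The genome-wide shares were 50.7% and 47.8%.

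Promoter sequence was compared with the peaks for the 41 members that the reference gives a promoter for (45 promoters of 300 bases, 250 before to 50 after the start). A summit within 1 kb of a start was found in all 5 libraries for 4 of the 41 (49.6% of 17491 genes), in each ectoderm library but not forebrain for 4 (0.497%), in forebrain with no ectoderm library for 1 (3.64%) and in no library for 24 (28.6%). Of the 45 promoter windows themselves, 1 was overlapped by a peak in all 5 libraries (41.9% of all windows), 4 in each ectoderm library but not forebrain (0.433%), 2 in forebrain with no ectoderm library (5.91%) and 31 in none (34.7%). The windows of Sprr1a, Lce1g and Lce1l were overlapped in some ectoderm libraries and not in forebrain. The median member promoter held 2 CG dinucleotides, against 13 over 21262 promoters of protein-coding genes. The members with 1 annotated start and a start-site peak in all 5 libraries, S100a1, S100a13 and S100a11, held 11, 14 and 15. S100a1 and S100a13 shared 1 peak, and their promoter windows were overlapped by peaks of forelimb replicate 1 and forebrain only. S100a16 was the other gene with a peak in all 5. Its strongest summits lay 629 to 660 bases after its second start in ectoderm and 30 bases after it in forebrain. Of the 32 members whose promoters held 0 to 3, 22 had no start-site peak in any library, 3 had the ectoderm pattern and 0 had a peak in all 5. Over 4136 genes with 0 to 3, the shares were 82.5%, 0.87% and 1.60%. Promoters this poor in CG thus mostly lacked a peak across the genome too.

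**Figure D5:**
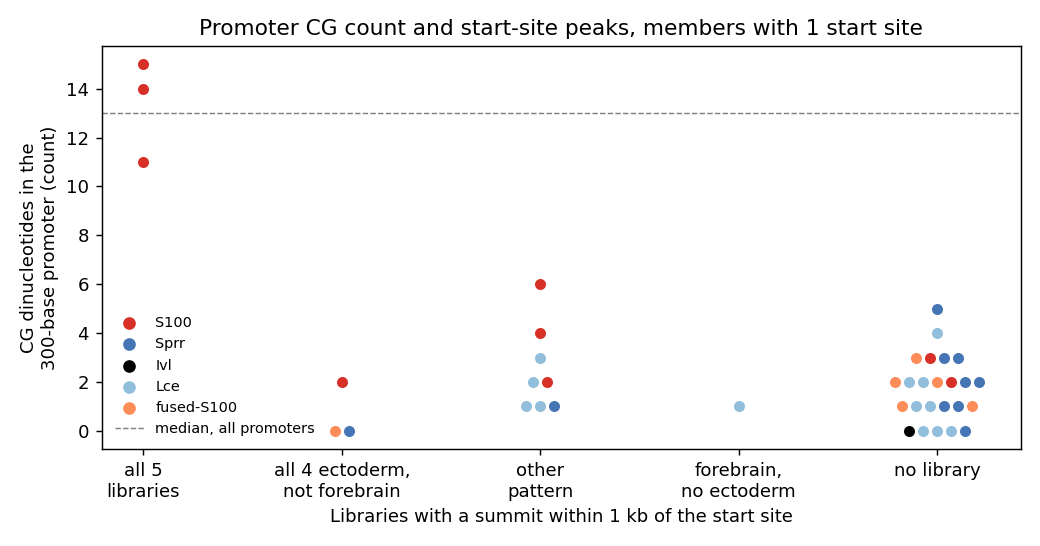
Points give the number of CG dinucleotides in the 300-base promoter (vertical axis) of members with 1 annotated start, grouped by the libraries with a summit within 1 kb of the start (horizontal axis) and coloured by part. The dashed line is the median of 13 over all promoters. The 3 genes with a peak in all 5 libraries, of which S100a1 and S100a13 share 1 peak, hold 11 to 15, and all others 6 or fewer.

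AP-1 and TATA-box letters were frequent in Sprr promoters whether or not a peak was present. TGANTCA occurred in 8 of 10 Sprr promoters, 4 of 6 fused-S100, 2 of 15 S100 and 0 of 13 Lce promoters, and in that of Ivl, against 6.99% of all promoters and 12.2% of all with 0 to 3 CG. The 4 fused-S100 matches and those of Sprr1b and S100a16 had A or T at N, and the others C or G. TATAAA occurred in 9 of 10 Sprr, 4 of 6 fused-S100, 4 of 15 S100 and 2 of 13 Lce promoters, and in that of Ivl, against 12.6% of all promoters and 27.6% of all with 0 to 3 CG. In all 6 Sprr2 members the TATA match began 29 bases before the start, and an AP-1 match began 193 to 198 bases before it. Sprr1a had AP-1 matches 146 and 116 bases upstream, Ivl 116, Sprr1b 111, Flg 103, Crnn and Rptn each 96, and Flg2 69. Of these promoter windows, that of Crnn was overlapped by a peak in each ectoderm library and that of Sprr1a in each except hindlimb replicate 1. Those of the 6 Sprr2 genes, Sprr1b, Ivl, Flg, Flg2 and Rptn were overlapped in no library. The letters AACNGGTT, the grainyhead-like motif, were found in 3 of 45 member promoters (1.95% of all), those of S100a9, Rptn and 1 start of S100a3. GCCNNNGGC, the AP-2 motif, was found in 5 of 45 (19.9% of all), TTGCNNAA, the C/EBP motif, in 4 of 45 (10.2% of all), 3 of them fused-S100 genes, and ACATTCC, the TEAD motif, in 2 of 45 (3.38% of all). All motifs were sought on both strands, none contains another, and a match is a description of letters.

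Other genes of the differentiation programme were counted from fixed lists. Of 20 further protein-coding genes of the complex, 14 had no gene-end peak in any library, 2 (Lor and Crct1) had one in all 5, and 0 showed the ectoderm pattern. Over all protein-coding genes these shares were 28.1%, 46.4% and 0.585%. Loricrin (Lor), a major envelope protein, had a forebrain peak inside the gene with a fold of 7.74 and a local background 4.62 times the library's rate. An ectoderm-only region lay 8056 bases from Lor, with folds of 12.4 and 10.0 in forelimb, and 7.64 and 14.2 in hindlimb. Of 17 cornified envelope and differentiation genes outside the complex, 10 and 8 had a gene-end peak in forelimb, 5 and 9 in hindlimb, with forebrain at 7, and Casp14 and Krtdap showed the ectoderm pattern. Of 15 regulators, 14 and 13 had one in forelimb, 10 and 14 in hindlimb, with forebrain at 13, with 10 in all 5 libraries.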

How the data were processed

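ATAC-seq peaks were analysed in 4 ectoderm libraries and 1 forebrain library. Per the submitters' processing notes, MACS2 2.1.1.20160309, Bowtie2 2.3.5, cutadapt 1.16, Picard and bedtools were used, with mm10. Their roles, and any shift of reads to the insertion point, are not stated there. Each library has its own peak list, as deposited. Each deposited row gives a summit, a fold enrichment (a ratio to local background), −log10 p and −log10 q, and a score that was not used. These are the authors' values, used within their own list. The smallest −log10 q was 1.30 to 1.31, that of a q threshold of 0.05.

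Unplaced scaffolds and mitochondrial DNA were left out. Summit pileups were solved from fold and p under a Poisson model, within 0.01 in −log10 units for 100% of peaks with p above the numerical limit. Regions were joined by 1 bp of overlap and placed by their strongest summit. A summit inside more than 1 gene went to the gene with the nearer end. Absence of a peak is absence of a call. RefSeq tables of GRCm38.p6 gave all 46 members; 41 matched a promoter. Promoters were aligned globally (match 1, mismatch -1, gap -3 and -0.5) with Biopython 1.88. Python 3.11.15, pandas 2.3.3 and scipy 1.17.1 were used, and the functions were tested on simulated data. Intervals, where given for a share, are Clopper-Pearson intervals of 95%.

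The members and lists were chosen with earlier results of these data known. Named with values were members with a gene-end peak, with a region in all 4 ectoderm libraries or with a forebrain-only region of −log10 q 5 or more; other members are named for absence. Lor and the regions near single genes outside these were chosen after their values were seen. Alternatives were a stricter q, equal list lengths, joining within 100 bp, a gene end within 2.5 kb, start sites only, members only as nearest genes, each interval counted once and each ectoderm library left out. The genome-wide shares without hindlimb replicate 1, and the shares of summits at the stricter q, were added after seeing the data.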

Additional observations from a re-analysis of the deposited data

How the results depend on the processing

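Of 90 recomputed counts under 11 settings, 74 stayed within 1.5 times of the reported count and 16 did not. At a −log10 q of 5 or more there were 9 regions in all 5 libraries, 1 hindlimb-only region, 5 ectoderm-only S100 regions, 2 members with the ectoderm gene-end pattern, and 74 summits in forelimb replicate 1, 31 in hindlimb replicate 1 and 51 in forebrain, so that hindlimb replicate 1 had fewer than forebrain. With the strongest 51510 peaks of each list there were 9 forebrain-only regions, 1 hindlimb-only region and 42 forebrain summits. With members alone as nearest genes, 2 ectoderm-only regions fell to Lce genes. With a gene end of 2.5 kb, 10 members had a peak in all 5 libraries, and the share of all genes at that distance was not computed. The cause was not tested, beyond the fewer peaks that the stricter settings keep.

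Leaving out each ectoderm library in turn gave 19 to 31 ectoderm-only regions, with 8 to 9 for S100, 1 to 2 for Sprr, 1 to 2 for Lce and 3 to 6 for fused-S100 genes. Regions in all 5 libraries numbered 19 to 28 and forebrain-only regions 22 to 23. Members with the ectoderm gene-end pattern stayed at 4, and those with a peak in all libraries numbered 6 to 9. The upper values of 31 and of 6 came without hindlimb replicate 1. No paired analysis was possible because the results are counts of peak calls with no test, and the labels do not say whether forelimb and hindlimb replicates of the same number share embryos. A pileup of 10 to 13 reads was the least among the called peaks of the complex, and weaker sites there may have gone uncalled.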

Other observations

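At the forebrain summits inside Tchh the local background was 6.04 and 5.98 times the library's rate, and inside Lor 4.62 times. At the forebrain peak of the Chtop gene end, just before S100a1, it was 5.58 times. At the regions near Lce1m (12.6 kb) and S100a9 (14.6 kb) that were open in all 5 libraries it was 1.07 and 1.17 times.

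A forebrain-only region near Lce3f, chr3:93002667-93003409, had a fold of 10.2, a −log10 q of 79.3 and a summit pileup of 123 reads. This was the highest −log10 q among the 21 forebrain-only regions of the complex. The region chr3:92998690-92999224, also nearest to Lce3f, was open in all 5 libraries. Its folds were 12.1 and 9.12 for forelimb, 3.36 and 7.87 for hindlimb and 8.54 for forebrain.

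The hindlimb-only region near Crnn, chr3:93164346-93164683, had folds of 5.18 and 6.18 in hindlimb replicates 1 and 2. Neither forelimb library had a peak there, although both had one, with folds of 12.7 and 13.3, at the neighbouring ectoderm-only region chr3:93162458-93162933.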
